A study of Mus musculus with 20 samples.

Results

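The genes of complement, blood coagulation and the serpin family make up much of what the liver secretes into plasma. They were taken here as every gene whose array symbol named a complement component from C2 to C9 or a C1 protease, a coagulation factor, a fibrinogen or kininogen chain, a serpin, an inter-alpha-trypsin inhibitor heavy chain, or one of the associated lectins, proteases and regulators (among them Masp, Mbl, Cfb, Cfi, Klkb1, Plg, Proc, Pros1). The choice used symbols only and no measured value, but it was made with earlier results of these data known. It gave 63 probes for 59 genes, out of 23574 probes, 21643 features (genes or unnamed single probes) and 11734 named genes. All 59 had a value on every array. Serpina3n, Serpinb3a, Serpinb3d and Serpinb6a had more than 1 probe each, which were averaged. C3, Fga, Fgb, Kng1 and Serpinc1 were not analysed here.

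Liver was profiled from 20 gonadectomized C57BL/6J mice of the FCG cross. Their Y chromosome, written Y-, has lost Sry, the gene that starts testis development, and some of the mice carry an Sry transgene on an autosome instead. Testis formation is thereby inherited apart from the sex chromosomes. The 4 groups, of 5 animals each, were XX Sry and XY-Sry, which carried the transgene and were gonadal males, and XX and XY-, which did not carry it and were gonadal females. Every animal ate chow of 4% fat, was gonadectomized when 8 weeks old and was killed at 12 weeks of age, fasted for 12 h. None of the groups had an intact Y chromosome with its own Sry or had gonads at death. A difference between carriers and non-carriers therefore includes the transgene and whatever the testes or ovaries had done until 8 weeks, and these cannot be told apart. Each array compared the Cy5-labelled liver of 1 animal with a common Cy3-labelled liver pool, so every value below is a log2 ratio to that pool. It shows how a gene varied between animals and not how abundant its transcript was, and the presence of liver markers could not be checked on this scale.

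Complement is a set of plasma proteases and pore-forming proteins that tag and lyse foreign or damaged cells. The classical pathway starts when C1q binds antibody or other ligands and its proteases cleave C4 and C2. The lectin pathway starts from mannose-binding lectins and their MASP proteases, and the alternative pathway is amplified through factor B. All pathways meet at C3 and end in the membrane attack complex of C5 (encoded by Hc in the mouse), C6, C7, C8 and C9. Coagulation is a second protease cascade that ends in thrombin (F2) cutting fibrinogen. Serpins are inhibitors that trap their target protease by a change of shape, and several have lost inhibition and carry hormones or assist folding. Hepatocytes make most of these proteins, and several of them are acute phase proteins that rise with inflammation.

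Array medians lay close to 0, and the SD of log2 ratios over all probes was 0.175 to 0.341. It exceeded 0.3 on 4 arrays, XX 2, XX 6, XY- 3 and XY- 12, all of them non-carriers of Sry, and values without them rest on the 6 other non-carriers. Correlations between arrays over all probes ran from -0.54 (XX Sry 38 with XY- 12) to 0.68 (XX Sry 9 with XY-Sry 5), and 9 of 190 pairs lay below -0.3. Dye orientation was identical throughout, and the direction was kept. Of the sex-linked label checks, the Y-linked gene Eif2s3y was at 0.57 to 1.34 on 9 XY arrays and at -5.28 to -2.46 on the 10 XX arrays, whereas the library labelled XY- 30 read -3.90. Kdm5d, also Y-linked, read -3.16 on the library labelled XY- 30, against 0.14 to 1.37 on the other XY arrays. That library went against its label. Counts of the chosen genes past the adjusted threshold, and differences of some of these genes, are also given without it. Differences of the other chosen genes are given only with it. The same holds for every gene not among those chosen, such as the C1q chains and the cell markers below. For those genes, differences without the 4 arrays of widest spread are not given either.

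The first comparison asked what differed with the Sry transgene over both sex chromosome complements (XX Sry and XY-Sry against XX and XY-, 10 animals each). Of the 59 genes, 1 passed limma's adjusted p of 0.05 (1.69%), Serpinh1, which was lower in carriers. Over all features 3.74% passed, and 2.28% passed and were lower in carriers. Whether these shares differ was not tested. Without adjustment, 13 of the 59 had p under 0.05 (22.0%), against 17.8% of all features. Of these, 11 were lower in carriers (Serpinh1, Serping1, Serpina6, Itih1, C1ra, Klkb1, Masp2, Serpina11, Serpinf2, F12 and F10) and 2 were higher (Serpina7 and Serpina3f). The fitted difference was below 0 for 39 of the 59 genes (66.1%) and for 46.3% of all features. Its median was -0.04 over the 59 genes and 0.0075 over all features. The differences ran from -0.68 for Serpina6 to 0.40 for Serpina7, and carriers and non-carriers overlapped in every gene. The share of all features with such an overlap was not counted. The count was 2 without the library labelled XY- 30 (Serpina6 and Serpinh1), 2 without the 4 arrays of widest spread (Klkb1 and Serpinh1) and 0 without all 5. The median of the 59 differences was -0.01 without the 4 arrays of widest spread and turned to 0.01 without all 5.

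**Figure D1:**
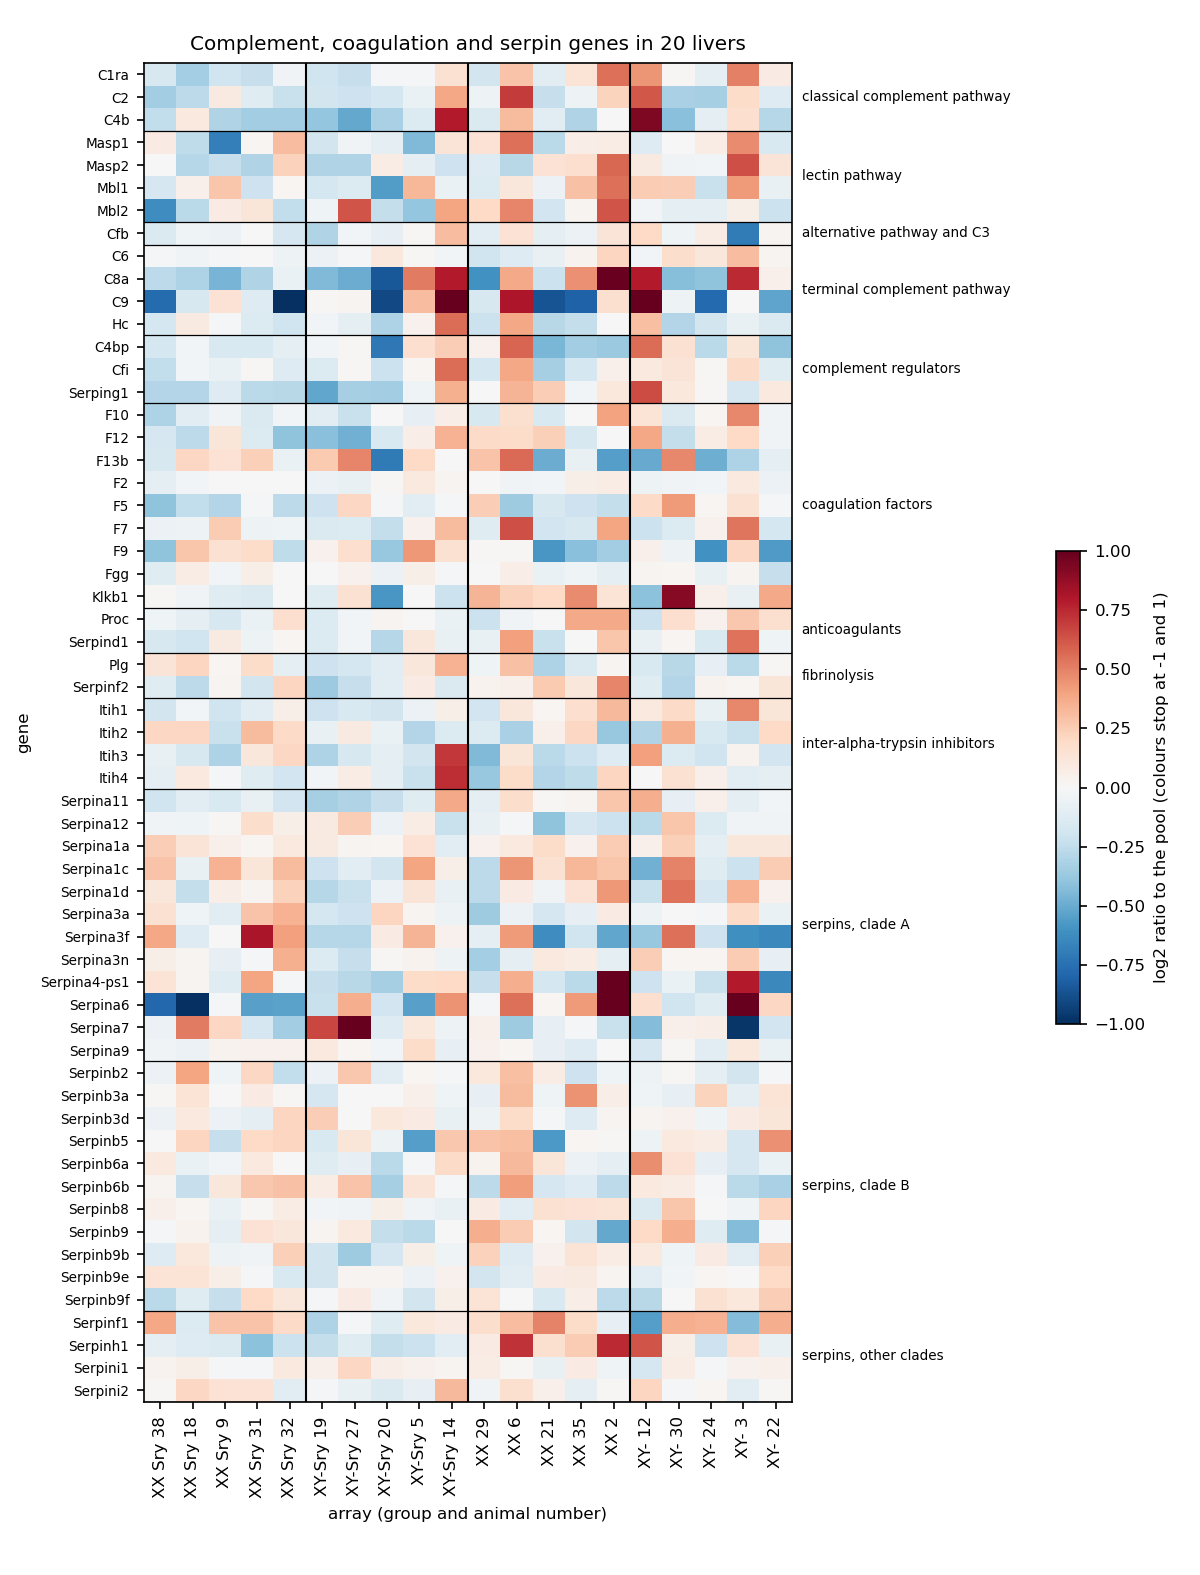
Log2 ratio to the pool of each of the 59 genes (rows, by role) on each of the 20 arrays (columns, XX Sry, XY-Sry, XX and XY-, separated by black lines). Red is above the pool and blue below it, with colours stopping at -1 and 1, and most rows change from animal to animal inside a group as much as between groups.

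**Figure D2:**
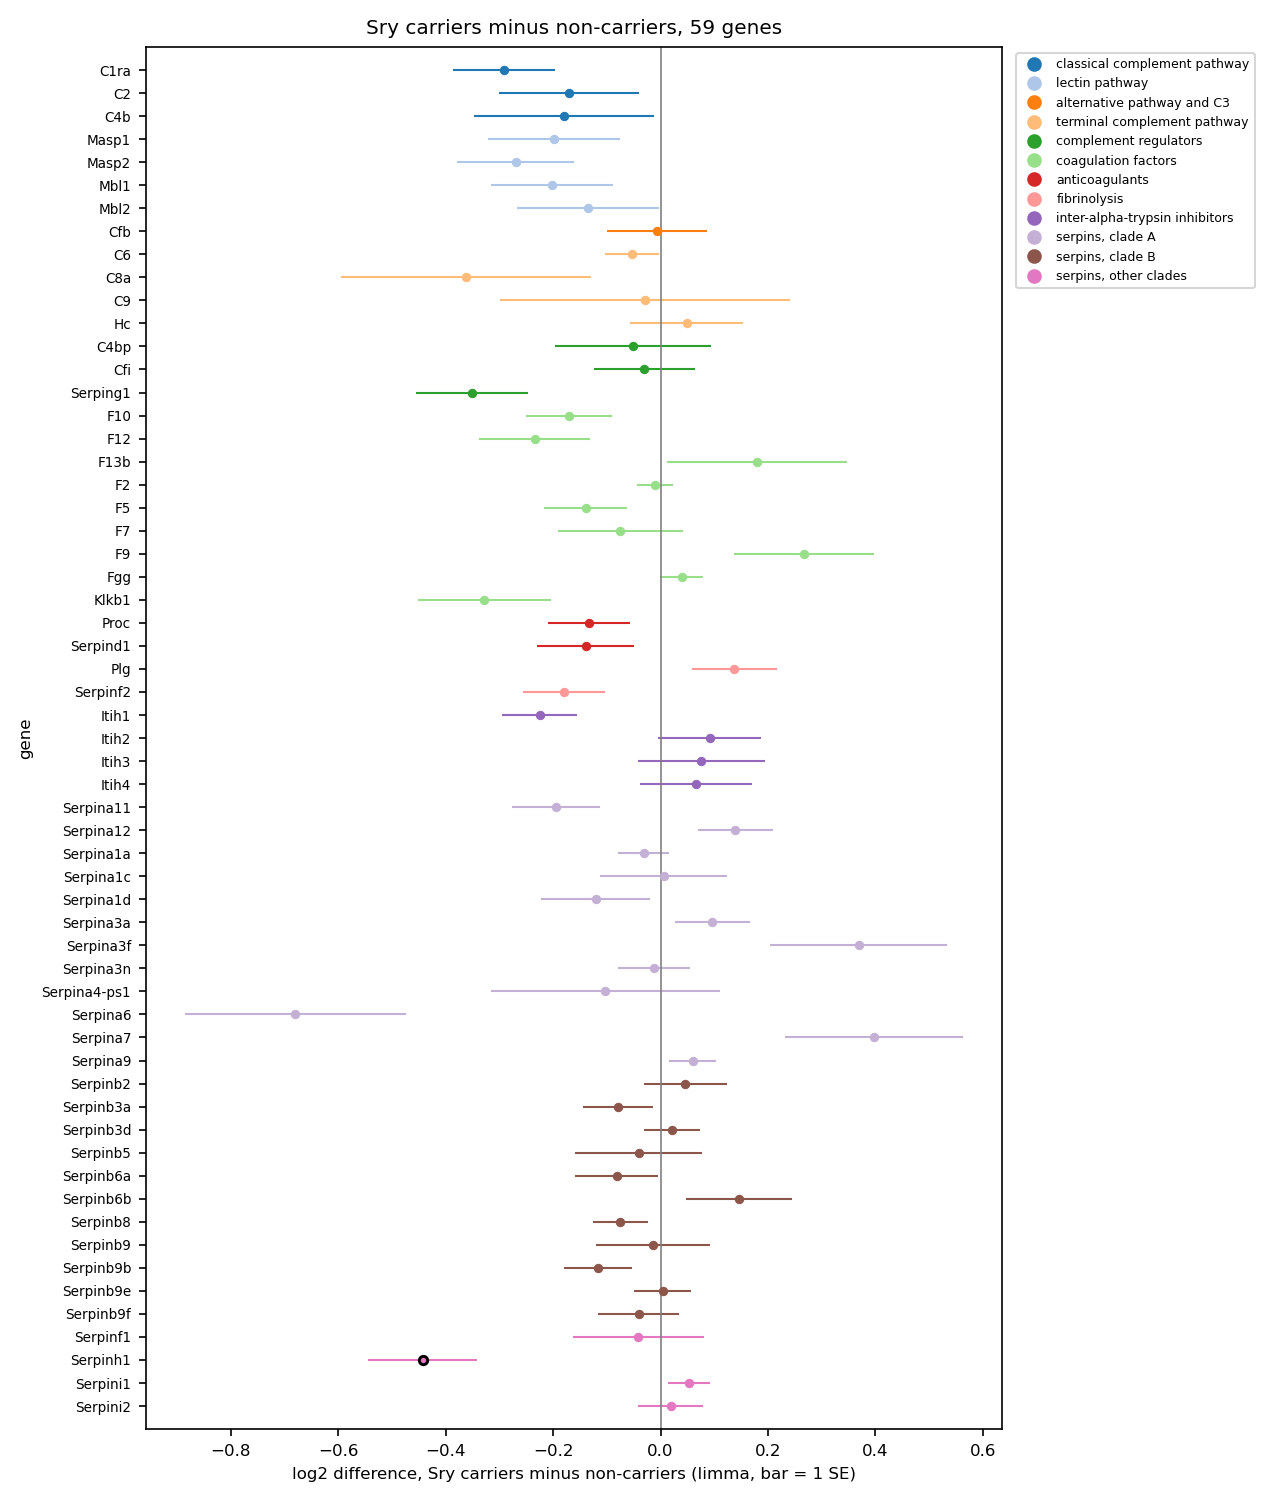
Fitted log2 difference of Sry carriers minus non-carriers for each of the 59 genes, with a bar of 1 standard error and colour by role. The ringed point is Serpinh1, the gene past adjusted p 0.05, and 39 of the points lie below 0.

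Serpinh1 encodes a collagen chaperone of the endoplasmic reticulum, also called HSP47. It is a serpin that inhibits no protease and is needed for folding of procollagen. Its log2 ratio was -0.09, -0.13, -0.15, -0.41 and -0.21 in XX Sry livers and -0.24, -0.12, -0.24, -0.21 and -0.12 in XY-Sry livers. It was 0.08, 0.72, 0.16, 0.25 and 0.75 in XX livers and 0.63, 0.06, -0.20, 0.15 and -0.07 in XY- livers. All 10 carriers lay below the pool, the 5 XX livers all lay above every carrier, and of the XY- livers only XY- 24 lay within the carriers' range. The means were -0.19 ± 0.09 in carriers and 0.25 ± 0.34 in non-carriers (SD, n = 10 each), a difference of -0.44 ± 0.10 (SE, limma, adjusted p = 0.0201). The highest values were those of XX 2, XX 6 and XY- 12, which are among the 4 arrays of widest spread. Without those 4 arrays the difference was -0.24 ± 0.05 (adjusted p = 0.0269), and without them and the library labelled XY- 30 it was -0.20 (adjusted p = 0.0643), no longer past the threshold. Leaving out any single animal kept the adjusted p between 0.0116 and 0.0457.

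Some markers of other liver cells also differed with the transgene. Of 6 measured markers of stellate cells and fibroblasts, Col1a1, a collagen chain, differed by -0.87 (adjusted p = 0.0172) and Pdgfrb by -0.39 (adjusted p = 0.0309), both lower in carriers, and 4 did not pass. The mean of the 6 markers was -0.24 to 0.08 on carrier arrays and -0.12 to 0.43 on non-carrier arrays. It was highest on XY- 12 (0.43), XX 6 (0.36) and XX 2 (0.25), which are among the 4 arrays of widest spread. Differences of Col1a1 and Pdgfrb without those 4 arrays are not given here. The part of stellate cells and fibroblasts in the Serpinh1 difference was not tested. In whole liver, fewer cells of a type and less RNA per cell cannot be told apart, here and for every gene below. The 250 bases before the RefSeq start of Serpinh1 (GRCm38.p6, chr7:99353240-99353489, minus strand, printed along the gene) are shown because this was the gene that passed. They held no match to the motifs searched, which are given with the terminal complement genes:
Serpinh1: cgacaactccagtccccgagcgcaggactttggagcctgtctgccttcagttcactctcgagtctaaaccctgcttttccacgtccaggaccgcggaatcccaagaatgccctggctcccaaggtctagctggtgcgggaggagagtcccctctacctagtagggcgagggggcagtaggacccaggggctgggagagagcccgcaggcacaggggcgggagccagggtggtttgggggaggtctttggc

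**Figure D3:**
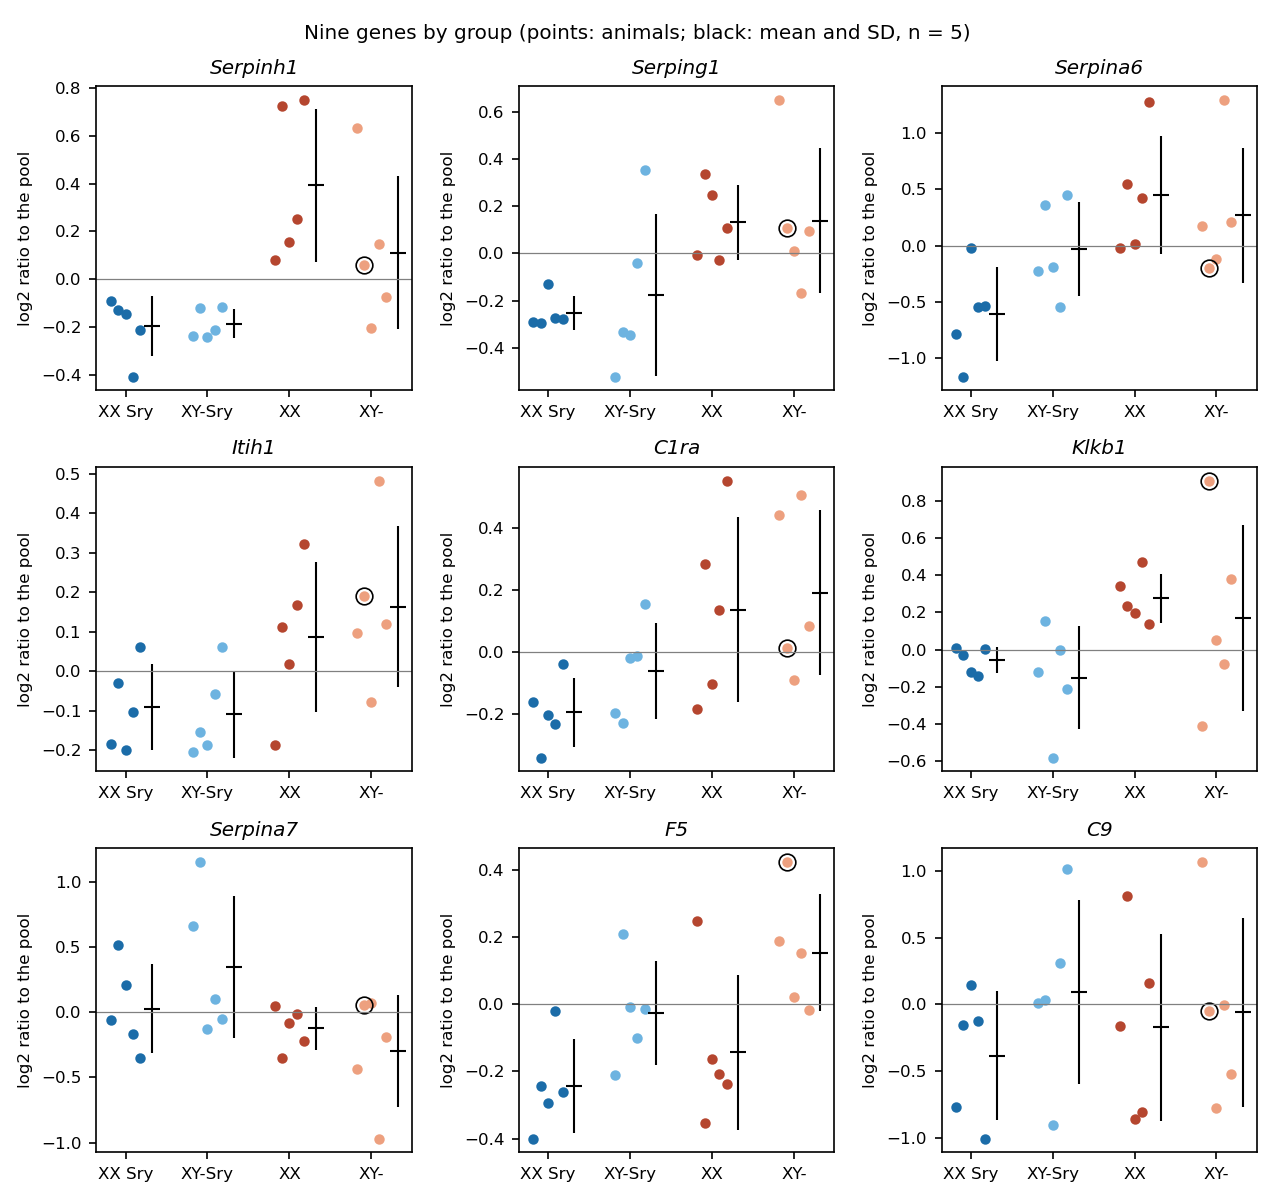
Log2 ratio to the pool in each animal (points) with the mean and SD of each group (black, n = 5) for Serpinh1, Serping1, Serpina6, Itih1, C1ra, Klkb1, Serpina7, F5 and C9; the ring marks the library labelled XY- 30. Serpinh1 lies below 0 in all 10 Sry carriers, whereas C9 spreads over more than 1 log2 unit in every group.

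In the classical pathway, 0 of the 3 genes in the set passed for Sry in limma, and 1 had unadjusted p under 0.05 (C1ra). All 3 differences were below 0 (median -0.18), but those of C2 and C4b were 0.08 and 0.05 without the 4 arrays of widest spread. C1ra, the protease C1r, read -0.16, -0.34, -0.20, -0.23 and -0.04 in XX Sry livers and -0.20, -0.23, -0.02, -0.01 and 0.15 in XY-Sry livers. It read -0.18, 0.28, -0.10, 0.13 and 0.55 in XX livers and 0.44, 0.01, -0.09, 0.51 and 0.09 in XY- livers, so that the groups overlapped, with XX 2, XY- 3 and XY- 12 highest. The C1ra difference was -0.29 ± 0.09 (adjusted p = 0.0948), and it passed without XX 29 (-0.33, adjusted p = 0.0473). Without the 4 arrays of widest spread it was -0.10 (adjusted p = 0.481). C2, the protease subunit of the classical C3 convertase, differed by -0.17 ± 0.13, and C4b, which supplies the other subunit, by -0.18 ± 0.17. C4b was highest on XY- 12 at 0.94 and on XY-Sry 14 at 0.79, and ranged from -0.51 to 0.32 elsewhere.

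The C1q chains, which are made by macrophages rather than hepatocytes, did pass for Sry. C1qa averaged -0.65 ± 0.40 in carriers and 0.29 ± 0.71 in non-carriers (difference -0.94, adjusted p = 0.0393). C1qb averaged -0.35 ± 0.17 in carriers and 0.28 ± 0.35 in non-carriers (difference -0.63, adjusted p = 0.00699). C1qc averaged -0.62 ± 0.38 in carriers and 0.30 ± 0.59 in non-carriers (SD, n = 10 each; difference -0.93, adjusted p = 0.0203). All 3 fell in carriers, while C1s1, the partner protease of C1r, differed by -0.08 (adjusted p = 0.506). The mean of the 4 measured classical genes outside the set was 1.29 on XY- 12, 1 of the 4 arrays of widest spread. On the other non-carrier arrays it was -0.11 to 0.44. Of 10 Kupffer cell and macrophage markers, Clec4f (-0.82), Csf1r (-0.97) and Cd5l (-1.18) also passed and were lower in carriers. Their 10-gene mean was -0.85 to 0.43 on carrier arrays and -0.32 to 1.44 on non-carrier arrays, where XY- 12 was highest and XX 6 next, at 0.45. Of 9 lymphocyte markers, 6 passed and were lower in carriers, among them Il2rb (-1.70) and Cd3g (-1.11). The part of these cells in the C1q differences was not tested. For the C1q chains and these markers, differences without XY- 12 or without the 4 arrays of widest spread are not given here.

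Among the regulators, Serping1 encodes C1 inhibitor, the serpin that holds C1r, C1s, the MASPs, kallikrein and factor XII in check. It read -0.29, -0.29, -0.13, -0.27 and -0.28 in XX Sry livers and -0.52, -0.34, -0.34, -0.04 and 0.35 in XY-Sry livers. It read -0.01, 0.34, 0.25, -0.03 and 0.11 in XX livers and 0.65, 0.11, 0.01, -0.17 and 0.10 in XY- livers. Of the 10 carriers 9 lay below 0, and XY-Sry 14 stood at 0.35, within the upper values of non-carriers. The Serping1 difference was -0.35 ± 0.10 (adjusted p = 0.0686) and did not pass. It passed without XY-Sry 14 (-0.42, adjusted p = 0.0149) and without XY- 3 (-0.39, adjusted p = 0.0462). C4bp, which binds C4b and helps to inactivate it, differed by -0.05 ± 0.15, and Cfi, the protease that cleaves C3b and C4b, by -0.03 ± 0.09; both turned above 0 (0.12 and 0.09) without the 4 arrays of widest spread. Of 8 further regulators outside the set, Cd59a, a membrane inhibitor of C9 insertion, passed and was lower in carriers (-0.34, adjusted p = 0.0291), and the other 7 did not. Of 5 complement receptors, Itgax, a chain of complement receptor 4 on myeloid cells, passed and was lower in carriers (-0.58, adjusted p = 0.0386). The mean of the 5 receptors was 0.46 on XY- 12 and -0.25 to 0.19 on the other arrays.

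For the lectin pathway, none of the 4 genes in the set passed for Sry in limma, and all 4 differences were below 0 (1 of the 4 had unadjusted p under 0.05), but that of Mbl2 was 0.01 without the 4 arrays of widest spread. That of Mbl1 was -0.07 without them and -0.0041 when the library labelled XY- 30 was left out too. Masp2, the protease that cleaves C4 and C2, averaged -0.14 ± 0.19 in carriers and 0.13 ± 0.29 in non-carriers (SD, n = 10 each), a difference of -0.27 ± 0.11 (adjusted p = 0.19). Among non-carriers, XX 2 at 0.58 and XY- 3 at 0.65 lay above the -0.28 to 0.17 of the other 8. Over the alternatives other than single animals left out, the Masp2 difference was -0.30 to -0.18 and never passed. These alternatives include leaving out the 4 arrays of widest spread. Mbl1 and Mbl2, the circulating mannose-binding lectins, differed by -0.20 ± 0.11 and -0.14 ± 0.13, and Masp1, which activates MASP2, by -0.20 ± 0.12. Of 4 lectin genes outside the set, Fcna (ficolin A, -0.56, adjusted p = 0.0137) and Colec11 (collectin 11, -0.24, adjusted p = 0.0268) were lower in carriers and passed, and Fcnb and Colec10 did not. The mean of these 4 genes was 0.49 on XY- 12 and -0.28 to 0.23 on the other arrays. Cfb, the protease of the alternative pathway, differed by -0.01 ± 0.09, with XY- 3 at -0.70 far below the -0.30 to 0.31 of the other 19 arrays.

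None of the 4 terminal genes passed for Sry in limma, and none had unadjusted p under 0.05. C9, the pore-forming unit of the membrane attack complex, read -0.77, -0.16, 0.15, -0.13 and -1.01 in XX Sry livers and 0.01, 0.03, -0.90, 0.31 and 1.02 in XY-Sry livers. It read -0.16, 0.81, -0.86, -0.81 and 0.16 in XX livers and 1.07, -0.05, -0.78, -0.0048 and -0.53 in XY- livers, so that each of the 4 groups held values on both sides of 0. The C9 difference for Sry was -0.03 ± 0.27 (adjusted p = 0.979), and 0.39 ± 0.25 (adjusted p = 0.474) without the 4 arrays of widest spread. C8a, a chain of C8, read -0.26, -0.30, -0.47, -0.30 and -0.07 in XX Sry livers, -0.44, -0.49, -0.84, 0.52 and 0.79 in XY-Sry livers, -0.61, 0.38, -0.22, 0.45 and 0.99 in XX livers and 0.79, -0.43, -0.40, 0.74 and 0.05 in XY- livers. The 5 XX Sry livers were all below 0, whereas every other group lay on both sides of it. Its difference was -0.36 ± 0.23 (adjusted p = 0.471), and 0.01 without the 4 arrays of widest spread. Hc, which encodes C5, differed by 0.05 ± 0.11 and C6, which joins C5b to begin the pore, by -0.05 ± 0.05.

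The high values of some complement genes, C9 and Hc among the terminal ones, fell on the same 3 arrays. C9 exceeded 0.8 on XY-Sry 14, XX 6 and XY- 12, and Hc had its 3 highest values there as well, at 0.56, 0.38 and 0.30. C2, C4b and C4bp also had their 3 highest values on those arrays, and Serping1 likewise. C8a read 0.79 on XY-Sry 14, 0.79 on XY- 12 and 0.38 on XX 6, but was highest on XX 2, at 0.99, and read 0.74 on XY- 3. C6 was highest on XY- 3 and XX 2, at 0.30 and 0.21, and below 0 on XY-Sry 14, XX 6 and XY- 12. The mean of 16 acute phase genes outside the set was 0.46 on XY-Sry 14, 0.39 on XX 6 and 1.13 on XY- 12, against -0.63 to -0.17 on the other 17 arrays. On XY- 12 the mean of 6 neutrophil markers was 2.88, against -2.08 to -0.50 elsewhere. The labels name no treatment or finding for these animals, and the part of an acute phase response in these values was not tested. None of the 16 acute phase genes passed for Sry in limma.

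Promoter letters of C9 and C8a are shown because these genes, with C9 foremost, had the widest spread of the complement genes. Both windows are the 250 bases before the RefSeq start in GRCm38.p6, printed along the gene, C9 at chr15:6445096-6445345 on the plus strand and C8a at chr4:104876399-104876648 on the minus strand. Capitals mark matches to 5 motifs searched on both strands: TTCNNNGAA (STAT), TTGCNNAA (C/EBP), GTTAAT (1 arm of the HNF1 site), CAAAGTCCA (HNF4) and AGAACA (1 arm of the glucocorticoid and androgen receptor site). C9 held a C/EBP match that began 132 bases before the start and AGAACA 21 bases before it. C8a held a STAT match 228 bases and GTTAAT 107 bases before its start:
C9: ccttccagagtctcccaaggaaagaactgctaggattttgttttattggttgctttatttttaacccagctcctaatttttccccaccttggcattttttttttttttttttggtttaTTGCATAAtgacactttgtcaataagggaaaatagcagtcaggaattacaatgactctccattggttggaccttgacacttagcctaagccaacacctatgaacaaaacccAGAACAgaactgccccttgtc
C8a: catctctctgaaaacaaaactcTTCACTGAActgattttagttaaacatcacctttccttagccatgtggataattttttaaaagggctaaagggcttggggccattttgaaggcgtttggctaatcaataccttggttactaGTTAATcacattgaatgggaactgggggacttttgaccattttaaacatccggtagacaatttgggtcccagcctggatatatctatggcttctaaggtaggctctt

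RefSeq's promoter table (GRCm38.p6) matched 48 of the 59 genes with windows of 300 bases, from 250 before to 50 after the start. Serping1 and Serpina6 were not among them. GTTAAT lay in the windows of 14 of the 48 genes, against 7.10% of all 32851 promoters of the table. TTCNNNGAA lay in 9 of the 48 and in 8.30% of all promoters, and TTGCNNAA in 12 of the 48 and in 10.8%. AGAACA lay in 19 of the 48 and in 19.0% of all, and CAAAGTCCA in 0 of the 48 and in 0.475%. No matches overlapped each other in the sequences shown. These are counts of letters and were not tested.

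**Figure D4:**
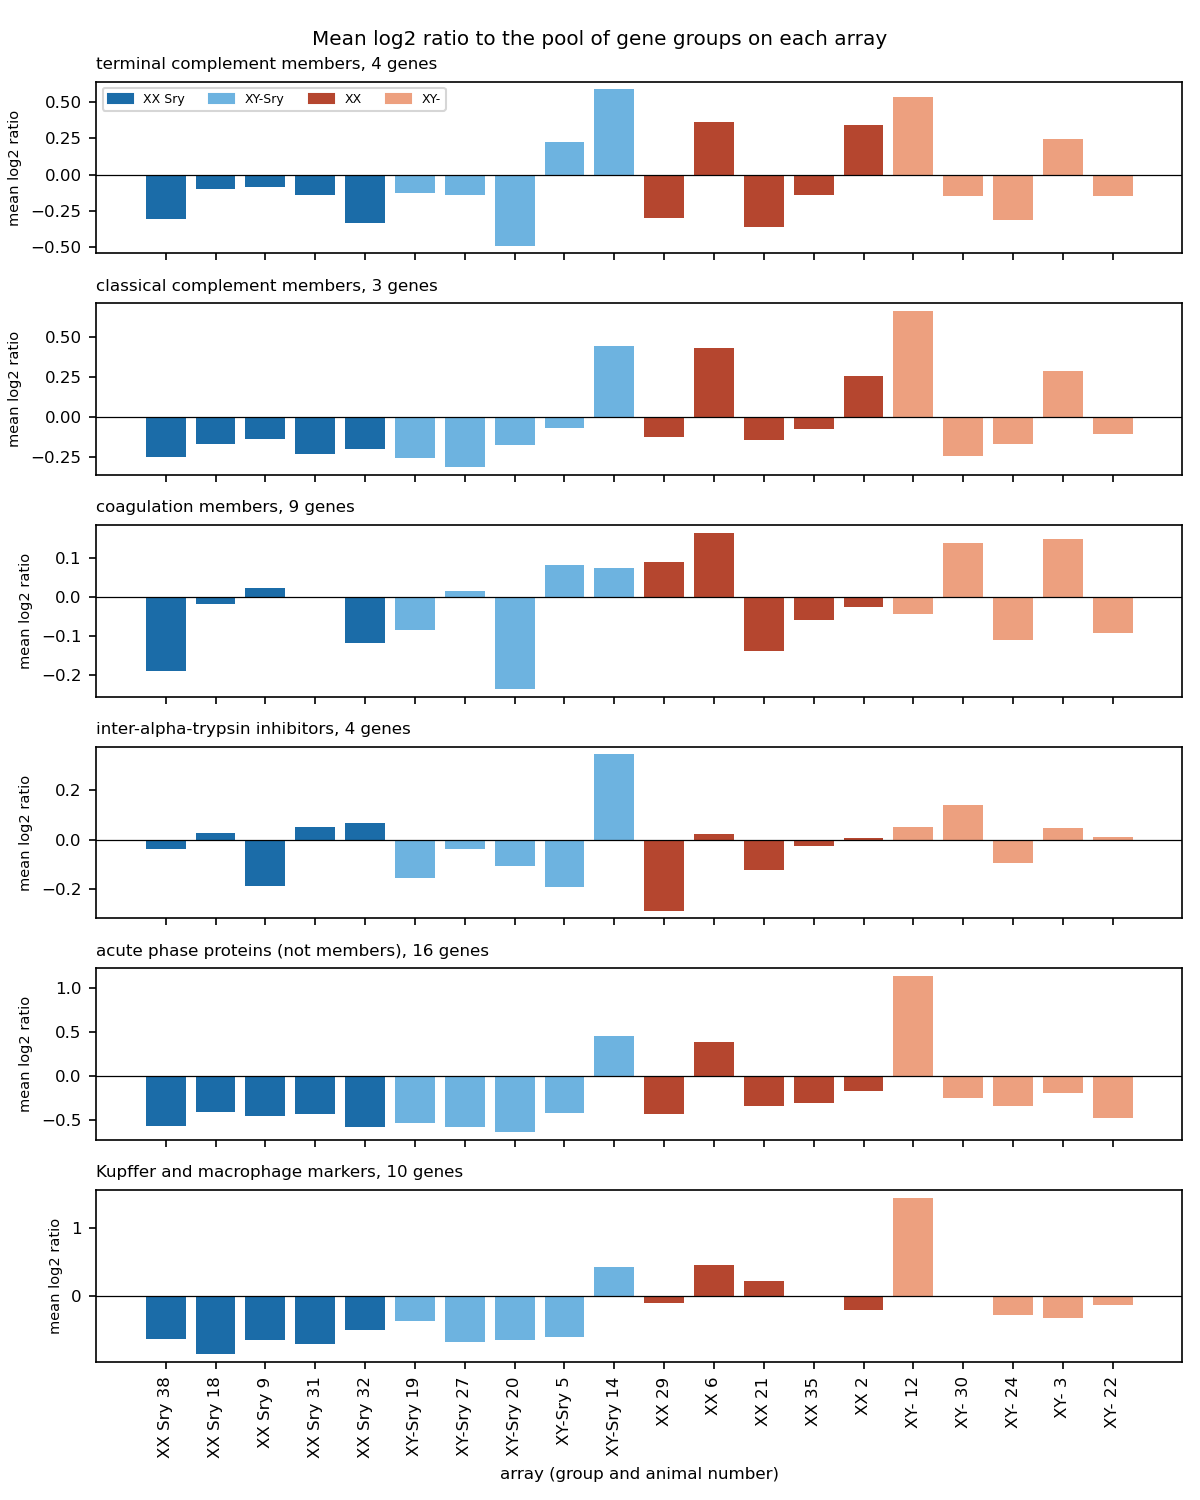
Mean log2 ratio to the pool on each of the 20 arrays for groups of genes (bars, coloured by group, with XX Sry, XY-Sry, XX and XY- from left to right). Terminal and classical complement genes stand above 0 on XY-Sry 14, XX 6 and XY- 12, and also on XX 2 and XY- 3; on the 3 arrays named first the acute phase genes outside the set read 0.46, 0.39 and 1.13, and on the other 2 they read -0.17 and -0.19. The coagulation genes stay within -0.23 and 0.16.

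None of the 9 coagulation genes passed for Sry in limma, and 3 had unadjusted p under 0.05 (Klkb1, F12 and F10). Klkb1 encodes plasma prekallikrein, the protease that activates factor XII and cleaves kininogen. It read 0.01, -0.03, -0.12, -0.14 and 0.0038 in XX Sry livers and -0.12, 0.16, -0.58, -0.0016 and -0.22 in XY-Sry livers. It read 0.34, 0.23, 0.20, 0.47 and 0.14 in XX livers and -0.41, 0.91, 0.05, -0.08 and 0.38 in XY- livers. The 5 XX livers all lay above the 5 XX Sry livers, whereas XY- and XY-Sry livers overlapped. The Klkb1 difference was -0.33 ± 0.12 (adjusted p = 0.158). Without the library labelled XY- 30, which held the highest value, it was -0.24 ± 0.10 (adjusted p = 0.165). Without the 4 arrays of widest spread it was -0.50 ± 0.12 and passed (adjusted p = 0.0312).

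The other clotting factors stayed near the pool or overlapped between groups. F2 (prothrombin) had the narrowest range of all 59 genes, 0.19 log2 units over the 20 arrays, and a difference of -0.01 ± 0.03. Fgg, a fibrinogen chain, ranged over 0.31 and differed by 0.04 ± 0.04. F7, which starts clotting together with tissue factor, differed by -0.07 ± 0.12, and F5, the cofactor of factor X, by -0.14 ± 0.08. F9, an X-linked gene for the factor lacking in haemophilia B, averaged 0.04 ± 0.29 in carriers and -0.23 ± 0.31 in non-carriers (difference 0.27 ± 0.13, adjusted p = 0.297). F13b, the carrier subunit of factor XIII, differed by 0.18 ± 0.17, F12, which starts contact activation, by -0.23 ± 0.10 (adjusted p = 0.238) and F10, which cleaves prothrombin, by -0.17 ± 0.08 (adjusted p = 0.276). Of the 4 coagulation genes outside the set, Fgl1 had the largest difference (0.36, adjusted p = 0.314) and none passed.

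Proc, the zymogen of the anticoagulant protein C, differed by -0.13 ± 0.08, and Serpind1, heparin cofactor II, by -0.14 ± 0.09. None of the 8 anticoagulant genes outside the set passed, and the largest difference among them was that of Procr, the protein C receptor (-0.62, adjusted p = 0.138). In fibrinolysis, Plg (plasminogen) differed by 0.14 ± 0.08 and Serpinf2, the plasmin inhibitor, by -0.18 ± 0.08 (adjusted p = 0.218), so that the protease and its inhibitor differed in opposite directions without either passing. Hgfac, the activator of hepatocyte growth factor, was the gene that passed among 5 outside the set, at -0.26 (adjusted p = 0.0338). None of the 3 measured vitamin K cycle genes, which serve the modification of clotting factors, passed; Vkorc1l1 had the largest difference (0.37, adjusted p = 0.13).

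The inter-alpha-trypsin inhibitor heavy chains bind hyaluronan and stabilise extracellular matrix. Itih1 read -0.19, -0.03, -0.20, -0.10 and 0.06 in XX Sry livers and -0.20, -0.16, -0.19, -0.06 and 0.06 in XY-Sry livers. It read -0.19, 0.11, 0.02, 0.17 and 0.32 in XX livers and 0.10, 0.19, -0.08, 0.48 and 0.12 in XY- livers, with XX 29, XX 21 and XY- 24 among the carriers' values. The Itih1 difference was -0.22 ± 0.07 (adjusted p = 0.0811). It passed without XX 29 (-0.26, adjusted p = 0.0326) and without XY- 24 (-0.25, adjusted p = 0.0476), and was -0.14 (adjusted p = 0.294) without the 4 arrays of widest spread. Itih2, Itih3 and Itih4 had differences of 0.09 ± 0.10, 0.08 ± 0.12 and 0.07 ± 0.10. Itih3 and Itih4, the acute phase members of the family, were highest on XY-Sry 14, at 0.71 and 0.74, with the other 19 arrays at -0.44 to 0.41 and -0.38 to 0.21.

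Clade A held the widest ranges. Serpina6 encodes corticosteroid-binding globulin, which carries glucocorticoids in plasma and inhibits no protease. It read -0.78, -1.16, -0.02, -0.54 and -0.54 in XX Sry livers and -0.22, 0.36, -0.19, -0.54 and 0.45 in XY-Sry livers. It read -0.02, 0.55, 0.02, 0.43 and 1.28 in XX livers and 0.17, -0.20, -0.12, 1.29 and 0.21 in XY- livers. Of the 5 XX Sry livers 4 lay below all XX livers, and XX Sry 9 lay level with XX 29, the lowest XX liver. XY-Sry and XY- livers overlapped, and XX 2 and XY- 3 stood far above the rest. The Serpina6 difference was -0.68 ± 0.21 (adjusted p = 0.0739). It was -0.74 ± 0.21 and passed without the library labelled XY- 30 (adjusted p = 0.0497), and was -0.37 ± 0.17 (adjusted p = 0.289) without the 4 arrays of widest spread.

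Serpina7 is X-linked and encodes thyroxine-binding globulin, another hormone carrier. It read -0.06, 0.52, 0.21, -0.17 and -0.35 in XX Sry livers and 0.66, 1.16, -0.13, 0.10 and -0.05 in XY-Sry livers. It read 0.05, -0.35, -0.08, -0.01 and -0.22 in XX livers and -0.43, 0.05, 0.07, -0.97 and -0.19 in XY- livers. XY-Sry 27, XY-Sry 19 and XX Sry 18 stood above 0.5 and XY- 3 near -1, while the other animals overlapped. The Serpina7 difference was 0.40 ± 0.17 (adjusted p = 0.206), and 0.21 (adjusted p = 0.617) without the 4 arrays of widest spread. Serpina4-ps1, named a pseudogene in the mouse, was at 1.65 on XX 2 and 0.80 on XY- 3, with the other arrays at -0.64 to 0.39.

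The remaining 9 genes of clade A ranged over 0.35 (Serpina9) to 1.47 (Serpina3f). The alpha-1-antitrypsin genes Serpina1a, Serpina1c and Serpina1d, which inhibit neutrophil elastase, differed by -0.03, 0.01 and -0.12 (SE 0.05, 0.12 and 0.10). The antichymotrypsin-like Serpina3a, Serpina3f and Serpina3n differed by 0.10, 0.37 and -0.01 (SE 0.07, 0.16 and 0.07), and Serpina3f reached adjusted p = 0.242. Serpina9, Serpina11 and Serpina12 differed by 0.06, -0.19 and 0.14 (SE 0.04, 0.08 and 0.07). Of the 12 clade A genes 11 lie on chromosome 12 and include near-identical copies, so a probe may read more than 1 of them and values of single copies are uncertain. The median Sry difference of those 11 was -0.01.

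Clade B holds the intracellular serpins, whose ranges over the 20 arrays ran from 0.38 (Serpinb3d) to 1.03 (Serpinb5). None of its 11 genes passed for Sry or had unadjusted p under 0.05, and differences ran from -0.12 (Serpinb9b) to 0.15 (Serpinb6b). Serpinb9, the inhibitor of granzyme B, differed by -0.01 ± 0.11, and its mouse relatives Serpinb9b, Serpinb9e and Serpinb9f by -0.12, 0.0038 and -0.04. Serpinb8 differed by -0.08 ± 0.05, and by -0.15 ± 0.04 (adjusted p = 0.0797) without the 4 arrays of widest spread. Serpinb2, Serpinb3a, Serpinb3d, Serpinb5 and Serpinb6a differed by 0.05, -0.08, 0.02, -0.04 and -0.08. The probes of genes with more than 1 probe did not track each other: across the 20 arrays r was 0.38 for Serpina3n, -0.34 for Serpinb3a, -0.26 for Serpinb3d and -0.06 for Serpinb6a, and no probe of these genes passed for Sry. Of the remaining serpins, Serpinf1, the angiogenesis inhibitor PEDF, differed by -0.04 ± 0.12, and Serpini1 (neuroserpin) and Serpini2 by 0.05 ± 0.04 and 0.02 ± 0.06.

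Hepatocyte transcription factors that drive many of these genes were read beside them. Cux2, a repressor that is higher in female mouse liver, passed among 14 measured factors and was higher in Sry carriers (0.26 ± 0.35 in carriers and -0.46 ± 0.33 in non-carriers, SD, n = 10 each; difference 0.72, adjusted p = 0.0119). Hnf4a differed by 0.02, Cebpa by -0.27, Stat5b by -0.07 and Nr3c1, the glucocorticoid receptor, by 0.05, and none of these 4 passed. None of 10 other secreted liver proteins, nor of the 5 measured hepatocyte markers, passed for Sry. Their medians were 0.04 and -0.03. These lists share genes, and Serpina1a, a marker, also belongs to the set, so they are not separate references.

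The effect of Sry was then read within each sex chromosome complement, in comparisons that share no array. Within XX (XX Sry against XX, 5 each), 0 of the 59 genes passed in limma, against 0.665% of all features, and 9 had unadjusted p under 0.05 (15.3%), against 12.1% of all features. Within XY- (XY-Sry against XY-), 0 passed, against 0.157% of all features, and 5 had unadjusted p under 0.05 (8.47%), against 9.26%. Serpinh1 differed by -0.59 ± 0.14 within XX (adjusted p = 0.07) and by -0.30 ± 0.14 within XY- (adjusted p = 0.543). Within XX it passed without XX 29 (-0.67, adjusted p = 0.043), and without XY- 12, a change of spread alone, since that array is in neither group (adjusted p = 0.0105). Without the 4 arrays of widest spread the XX value was -0.36 (adjusted p = 0.035).

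Serpina6 differed by -1.06 ± 0.29 within XX (adjusted p = 0.113) and by -0.30 ± 0.29 within XY- (adjusted p = 0.766). The XX value passed with arrays scaled to a common median absolute deviation (-1.08, adjusted p = 0.041) and with array weights (-1.004, adjusted p = 0.0343). Serping1 differed by -0.38 ± 0.15 within XX and -0.32 ± 0.15 within XY-, and C1ra by -0.33 ± 0.13 and -0.25 ± 0.13. Within XY- the smallest p-values belonged to Serpina7 (0.64 ± 0.23, adjusted p = 0.368) and Itih1 (-0.27 ± 0.10, adjusted p = 0.368). Without the library labelled XY- 30 these were 0.73 and -0.26 (adjusted p = 0.256 and 0.333).

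Whether the Sry effect differed between XX and XY- was tested as an interaction. No gene of the 59 passed in limma, and none of the 21643 features did (0%). Of the 59, 2 had unadjusted p under 0.05 (3.39%), against 2.6% of all features: Serpina3n (0.30 ± 0.13) and Mbl2 (-0.57 ± 0.27). The Serpina3n value is a mean over 2 probes, which gave 0.14 ± 0.13 and 0.47 ± 0.20. The interaction of Serpina6 was -0.76 ± 0.41 (adjusted p = 0.9995), so its larger value within XX is not shown to differ from that within XY-. Serpina3a had an interaction of 0.29 ± 0.14.

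**Figure D5:**
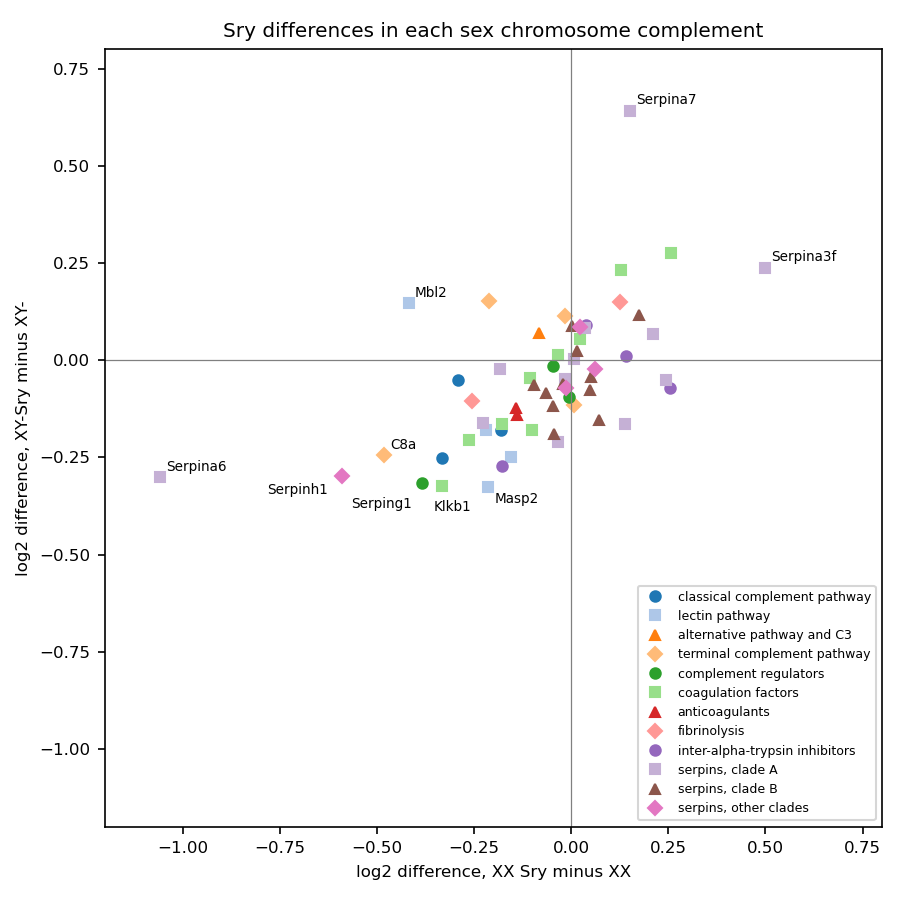
Log2 difference of XX Sry minus XX (horizontal) against XY-Sry minus XY- (vertical) for each of the 59 genes, by role, with 5 animals in each group. Serpina6 lies at -1.06 and -0.30 and Serpinh1 at -0.59 and -0.30, whereas Serpina7 lies at 0.15 and 0.64.

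The last comparison asked what differed with the sex chromosomes over both transgene states (XX Sry and XX against XY-Sry and XY-, 10 animals each). None of the 59 genes passed in limma, against 0.0277% of all features, and 2 had unadjusted p under 0.05 (3.39%), against 5.08% of all features. F5 averaged -0.19 ± 0.19 in XX livers of both kinds and 0.06 ± 0.18 in XY- livers of both kinds (SD, n = 10 each), a difference of -0.26 ± 0.08 (adjusted p = 0.912). Without the library labelled XY- 30, which held the highest F5 value (0.42), the difference was -0.22 ± 0.07 (adjusted p = 0.745). By group F5 read -0.40, -0.24, -0.29, -0.02 and -0.26 in XX Sry livers, 0.25, -0.35, -0.16, -0.21 and -0.24 in XX livers, -0.21, 0.21, -0.01, -0.10 and -0.01 in XY-Sry livers and 0.19, 0.42, 0.02, 0.15 and -0.02 in XY- livers. XX 29, XX Sry 31, XX 21 and XX 35 lay within the range of XY- livers of both kinds. The XX livers of both kinds other than XX 29 lay below 0, as did XY- 22 and all XY-Sry livers except XY-Sry 27. Serpinf2 differed by 0.17 ± 0.08, Serpinf1 by 0.23 ± 0.12 and C6 by -0.09 ± 0.05. The X-linked genes F9 and Serpina7 differed by -0.08 ± 0.13 and -0.07 ± 0.17 between XX and XY- livers, within their standard errors of 0. The median of the 59 differences was 0.01, against -0.01 over all features.

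The genes of the set varied between animals of 1 group more than a typical feature of the array. Their within-group SD had a median of 0.225 log2 units, against 0.154 over all features. The range over the 20 arrays reached at least 1 log2 unit in 22 of the 59 genes (37.3%), against 21.5% of all features. The widest ranges were those of Serpina6 (2.46), Serpina4-ps1 (2.29), Serpina7 (2.13), C9 (2.07), C8a (1.84) and Klkb1 (1.49), and the narrowest that of F2 (0.19). XY-Sry 14, XX 2 and the library labelled XY- 30 each held the highest value of 8 genes, XY- 3 of 7, XX 6 of 6 and XY- 12 of 5. XY-Sry 20 held the lowest value of 11 genes, XY-Sry 19 and XX 29 of 7 each and XY- 12 of 6. The same counts were not made over all features, so they are not shown to be particular to these genes. As a description, the patterns most like Serpinh1 over the 20 arrays were those of C1ra (r = 0.76), C2 (r = 0.70) and Serping1 (r = 0.68). Those most like Serping1 were Serpina11 (r = 0.88), F12 (r = 0.79) and Serpinb6a (r = 0.75), and those most like Serpina6 were C1ra (r = 0.79), F10 (r = 0.78) and Mbl2 (r = 0.69). Without the 2 arrays farthest from the median of Serpinh1, Serping1 or Serpina6, these coefficients were 0.51 to 0.83. The 20 points of each share the pool and include the 4 arrays of widest spread.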

How the data were processed

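Liver RNA of 20 gonadectomized mice was compared with a common liver pool on 2-colour arrays, with liver in Cy5 and pool in Cy3. Per the labels' protocols, RNeasy columns and DNase were used for the RNA, and an automated MessageAmp II reaction with aminoallyl nucleotides for labelling. The labels give the pool as 17 mice, whereas the design text gives equal RNA of every sample. The deposited values were taken as log10 ratios and are limited at 2 and -2. The scanner, background correction, dye normalization and log base are not given in the sources used here. Base 10 was inferred from the values: in that base the Y-linked Eif2s3y and Kdm5d of the XY livers other than XY- 30 averaged 1.74 and 1.68 times the pool. If it were another, every difference would scale by 1 factor and no test would change. Of all values 29 lay at the limit and 2 were missing, none of them of the 59 genes.

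Ratios were turned to log2. Probes were named through Entrez identifiers in RefSeq's gene table (GRCm38.p6, 12662 probes) or accessions (4), and 999 kept the platform symbol only. Probes of 1 symbol were averaged. Means of the 4 groups (5 animals each) were fitted with limma 3.58.1 (R 4.3.3; Python 3.11.15 with pandas 2.3.3) over 21643 features, with Benjamini-Hochberg adjustment over all of them and a threshold of 0.05, and the code was tested on simulated data. Differences are given as ± SE and values of animals in the order of the deposited arrays. Depth has no meaning on arrays, and 5 animals per group limit the precision. Whether animals of 1 group shared a litter is not stated. The samples' replicate numbers are animal numbers.

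The members and lists were chosen with earlier results of these data known. Named in full were genes that passed, the 4 smallest p-values in each comparison, the extremes of each list by Sry difference, the 6 widest ranges and values far from their group; the rest are given so that every gene is accounted for. Alternatives left out each animal, the library labelled XY- 30 or the 4 arrays of widest spread, or changed the normalization, array weights, probes or adjustment.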

Additional observations from a re-analysis of the deposited data

Results flagged for a closer look

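Within groups of 5 animals, 18 of 236 combinations of gene and group held a value far from the others (7.63%). Its gap to the nearest other animal exceeded Dixon's critical value of 0.71 of the range. For independent normal values the rule gives about 1 in 20. The share over all features was not counted, so an excess is not shown to be particular to these genes. Of the 18 flagged values, 6 lay on XY- 3, 4 on XY-Sry 14, 3 on XX Sry 9 and 2 on XX 6.

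On XY-Sry 14, C4b read 0.79, Itih3 0.71, C2 0.39 and Serpini2 0.32, each above the other XY-Sry livers, and the acute phase genes outside the set were high on the same array. On XY- 3, Serpina6 read 1.29, Masp2 0.65, Serpind1 0.54, Serpina3a 0.19 and F2 0.10, above the other XY- livers, and Cfb read -0.70, below them. XY- 3 is 1 of the 4 arrays of widest spread. On XX Sry 9, F7 read 0.25 and Serping1 -0.13, above the other XX Sry livers, and Itih2 read -0.22, below them. On XX 6, another array of wide spread, Serpinb6b read 0.42, above the other XX livers, and Serpinb8 -0.10, below them.

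The remaining values were C4b at 0.10 on XX Sry 18, C4bp at -0.72 on XY-Sry 20 and Serpini1 at 0.21 on XY-Sry 27. None of these genes passed for Sry in limma with all animals.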

How the results depend on the processing

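No paired analysis was possible because the replicate numbers name animals and no number is shared between groups. The count of genes past the threshold for Sry (1 with all arrays) was 2 without the library labelled XY- 30, 2 without the 4 arrays of widest spread, 2 with quantile normalization, 3 with arrays scaled to a common median absolute deviation, 3 with array weights and 0 without the library labelled XY- 30 and the 4 widest arrays. Over single animals left out it was 1 to 3, with 3 without XY-Sry 14 (Serpina11, Serping1 and Serpinh1) or XX 29 (C1ra, Itih1 and Serpinh1) and 2 without XY- 30, XY- 24 (Itih1 and Serpinh1) or XY- 3 (Serping1 and Serpinh1). Serpinh1 was among the genes called in each of these settings except the 5-array one. Within XX the count (0 with all arrays) was 1 without the 4 widest arrays, 1 with quantile normalization, 2 with arrays scaled and 2 with array weights (Serpina6 and Serpinh1 in both), 1 without the 5 arrays, 2 with only the 10 arrays compared (Klkb1 and Serping1) and 0 to 1 over single animals left out. Counts for the sex chromosomes, the interaction and Sry within XY- stayed at 0 under every alternative run. Single probes, adjustment over named genes only and missing values at the limit moved no count. The cause was not tested where a value moved.

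The sign of the Sry difference turned for the genes below, none of which passed under the settings in which it turned. With all arrays the largest of these differences was that of C8a, at -0.36. Without the library labelled XY- 30 it was 0.031 for Serpinb9, -0.0017 for Serpinb9e and 0.0017 for Serpinf1. Without the 4 arrays of widest spread it was 0.078 for C2, 0.051 for C4b, 0.12 for C4bp, 0.0057 for C8a, 0.39 for C9, 0.086 for Cfi, 0.0047 for F2, 0.11 for F7, -0.065 for Itih2, 0.0054 for Mbl2, -0.049 for Serpina1c, 0.035 for Serpina3n, 0.26 for Serpina4-ps1, -0.027 for Serpinb9e and 0.0071 for Serpind1. Without all 5 of these arrays, a choice made after seeing the data, it was 0.062 for C2, 0.013 for C4b, 0.20 for C4bp, 0.49 for C9, 0.12 for Cfi, 0.0058 for F2, 0.098 for F7, -0.0094 for Itih2, 0.015 for Mbl2, 0.042 for Serpina3n, 0.33 for Serpina4-ps1, -0.050 for Serpinb9e and 0.026 for Serpind1. With array weights it was 0.11 for C4bp, 0.26 for C9, 0.035 for Cfi, -0.040 for Serpina1c, 0.11 for Serpina4-ps1, 0.016 for Serpinb9 and -0.032 for Serpinb9e. With quantile normalization it was 0.0022 for C4bp, 0.14 for C9 and -0.0069 for Serpinb9e. With arrays scaled to a common median absolute deviation it was 0.014 for C9. With each array centred on its median it was -8.7158e-05 for Serpina1c and -0.0018 for Serpinb9e. Over single animals left out the difference of those that turned ranged over -0.10 to 0.036 for C4bp, -0.14 to 0.11 for C9, -0.084 to 0.029 for Cfb, -0.094 to 0.024 for Cfi, -0.022 to 0.0040 for F2, -0.016 to 0.11 for Hc, -0.013 to 0.13 for Itih3, -0.015 to 0.11 for Itih4, -0.053 to 0.069 for Serpina1c, -0.048 to 0.0089 for Serpina3n, -0.17 to 0.070 for Serpina4-ps1, -0.076 to 0.033 for Serpinb9, -0.017 to 0.027 for Serpinb9e, -0.11 to 0.0017 for Serpinf1 and -0.021 to 0.043 for Serpini2. Of the single-gene differences recomputed under an alternative, 1623 kept their direction and side of the threshold, 102 turned, 22 passed newly and 1 no longer passed. The number of arrays, 5 per group, limits what can be seen, and a probe's signal over background is not known here.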
